A study of Mus musculus with 6 samples.

Results

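Cytosolic ribosomal protein genes, whose products build the large (Rpl) and small (Rps) subunits of the ribosome, were examined in RNA-Seq of E14.5 mouse lenses with and without a conditional deletion of Gata3. The members are the rows of the count table whose gene name starts with Rpl or Rps and a digit, or is Rpsa, without S6 kinase names (Rps6k) and without names that carry -ps, the mark of a pseudogene. This rule took 66 of 13024 genes. Of these, 32 encode large subunit proteins, 26 encode small subunit proteins and 8 are paralogs or carry a similar name (Rpl7l1, Rpl22l1, Rpl32l, Rpl36al, Rpl37rt, Rps4l, Rps19bp1 and Rps27l). A textbook list of 79 mouse subunit genes has 58 of its genes among the members. The P stalk genes Rplp0, Rplp1 and Rplp2 and the fusion gene Fau, which the naming rule leaves out, are described separately. The rest of that list has no row in the count table under its gene names, so the members are an incomplete set.

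There were 6 libraries, 3 control and 3 CKO, each from polyA RNA of a pool of 10 lenses from 5 embryos at E14.5, on a mixed C57BL/6 and FVB strain. CKO embryos were Gata3 f/f; Pax6-Cre/+, in which Cre is driven by a Pax6 ocular enhancer with the P0 promoter and acts in the ectoderm that gives rise to lens and cornea, and exon 4 of Gata3 is floxed. The control embryos are called wild type in the labels, Gata3 f/f in the Methods and Gata3 f/wt without Cre in the Results of the study, so they are named control here. Cre was present in CKO embryos alone, so an effect of Cre and an effect of the deletion cannot be told apart, and each pool mixes embryos, so variation among embryos is not seen. Values are given as CPM, the depth-scaled counts of a gene after TMM scaling of the library sizes in edgeR. Where 3 values of a group are given, they are replicates 1, 2 and 3 in this order, and SE stands for the standard error of a log2 fold change in the edgeR fit.

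The targeted gene did not follow the labels. Gata3, a zinc finger transcription factor, had 202, 386 and 156 counts in the control pools, and 910, 1064 and 894 counts in the libraries labelled CKO. With 1 count for each gene, fragments of the deleted exon cannot be told from those of the others, and every direction given for the libraries labelled CKO rests on the labels. The study checked the deletion of that exon in its reads and by PCR and describes it in the mutant lenses. By qPCR of lens RNA reaching from that exon into the next, it also reports Gata3 as strongly lower in the mutant. Reads and PCR were not analysed here. Between 15157230 and 18811104 fragments were counted per library. Lens fibre markers summed to 22752 CPM in control replicate 2 and to between 7222 and 10893 CPM in the other libraries, with 0 of the 12 markers at 0 in all libraries. Some genes of the fibre list are among those that the study reports as lower in the mutant lens. Between groups, the fibre sum therefore cannot be read as fibre content alone. Mesenchyme markers summed to 2378 CPM in control replicate 1 and 4187 CPM in CKO replicate 2, and to between 313 and 676 CPM in the rest. Lens markers were thus well expressed in every pool, beside RNA of surrounding tissue that differed between pools of one group.

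A eukaryotic ribosome holds 1 copy of nearly every ribosomal protein, and the proteins are made together with the ribosomal RNAs and assembled in the nucleolus. Their mRNAs are among the most abundant in growing cells, and many start with a pyrimidine tract, the TOP motif, through which mTORC1 signalling and Larp1 control their translation. Each gene also has many processed pseudogenes scattered over the genome, near-copies of the mRNA that make short reads hard to place. In the lens, proliferating epithelial cells divide, and elongating fibre cells make very large amounts of crystallin before they lose their organelles.

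To show what the start of these mRNAs looks like, the sequence around each annotated start site was searched for its longest run of C or T within 30 bases on either side. For a gene with several annotated starts, the start with the longest run was kept, which can raise the share of such genes with a run. Of the 48 members with a RefSeq promoter window, 30 (62.5%) held a run of at least 8 consecutive C or T on the mRNA strand. Such a run was found at 25.7% of the 10006 tested genes with a window, at 27.5% of 69 mitochondrial ribosomal protein genes and at 25.8% of all 27025 genes with a window. A run is a description of these letters and was not tested as a functional TOP motif, and the annotated start need not be the start used in the lens. The examples were chosen to show genes described in the next paragraphs, Rpl14, which has the smallest p, abundant and scarce genes, a paralog, and a pair of genes whose longest run is short. Each is 30 bases of the mRNA strand, 5′ to 3′, with the longest run in capitals.
Rpl14: cagggcgggCCCTCTCTCTTCTCgctgagc
Rpl4: agtgacaagTCTTTCCTTTTCCTgtgggag
Rpl15: gggagaaagCCTTCTTCCTTTCCTCTggcg
Rps6: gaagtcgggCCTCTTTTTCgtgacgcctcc
Rpl38: gaagcctcgTTCTTTCCCCgttctcttcgg
Rps25: gccaccgggCTTCCTTTTTTTCCgacatct
Rpl34: actcacccgCCCCTTCCTTTTCCTCTTCCg
Rps27: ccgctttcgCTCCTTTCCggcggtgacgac
Rpl22l1: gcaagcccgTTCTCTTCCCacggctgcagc
Rps2: gatctcgcgCTTCTTggagcactataaatt
Rps4x: caacccaggCTCCagcgcgcgcgcagcctc

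In the GRCm38.p6 assembly, these windows lie across or beside the annotated start, in the flank of the gene, its first transcribed bases or both. Those on the forward strand are Rpl14 (chr9:120571500-120571529), Rpl4 (chr9:64173360-64173389), Rpl38 (chr11:114668569-114668598), Rps25 (chr9:44407683-44407712), Rpl22l1 (chr3:28805500-28805529) and Rps2 (chr17:24720058-24720087). On the reverse strand lie Rpl15 (chr14:18270970-18270999), Rps6 (chr4:86857348-86857377), Rpl34 (chr3:130730334-130730363), Rps27 (chr3:90213630-90213659) and Rps4x (chrX:102189361-102189390). The run of Rpl14 was 14 bases long, that of Rpl15 was 17 and that of Rpl34 was 20, while Rps2 had 6 and Rps4x had 4. Both scarce and abundant members carried a run, with Rps27 and Rpl34 at the bottom and Rpl4 near the top of the levels described next.

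The 66 genes, from which part of the subunit genes is missing, together held 1081906 of 101757241 counts. Their share of all counts was 1.05%, 1.07% and 1.01% in the control pools, and 1.02%, 1.09% and 1.13% in the libraries labelled CKO. The groups overlapped, at 1.04% ± 0.03 in control and 1.08% ± 0.06 in CKO. With the counts of 16 crystallin genes left out of the totals, the order of the means turned, to 1.17% ± 0.10 in control and 1.15% ± 0.05 in CKO. The crystallin share itself was 16.5% in control replicate 2 and between 5.47% and 9.31% in the other libraries.

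**Figure D1:**
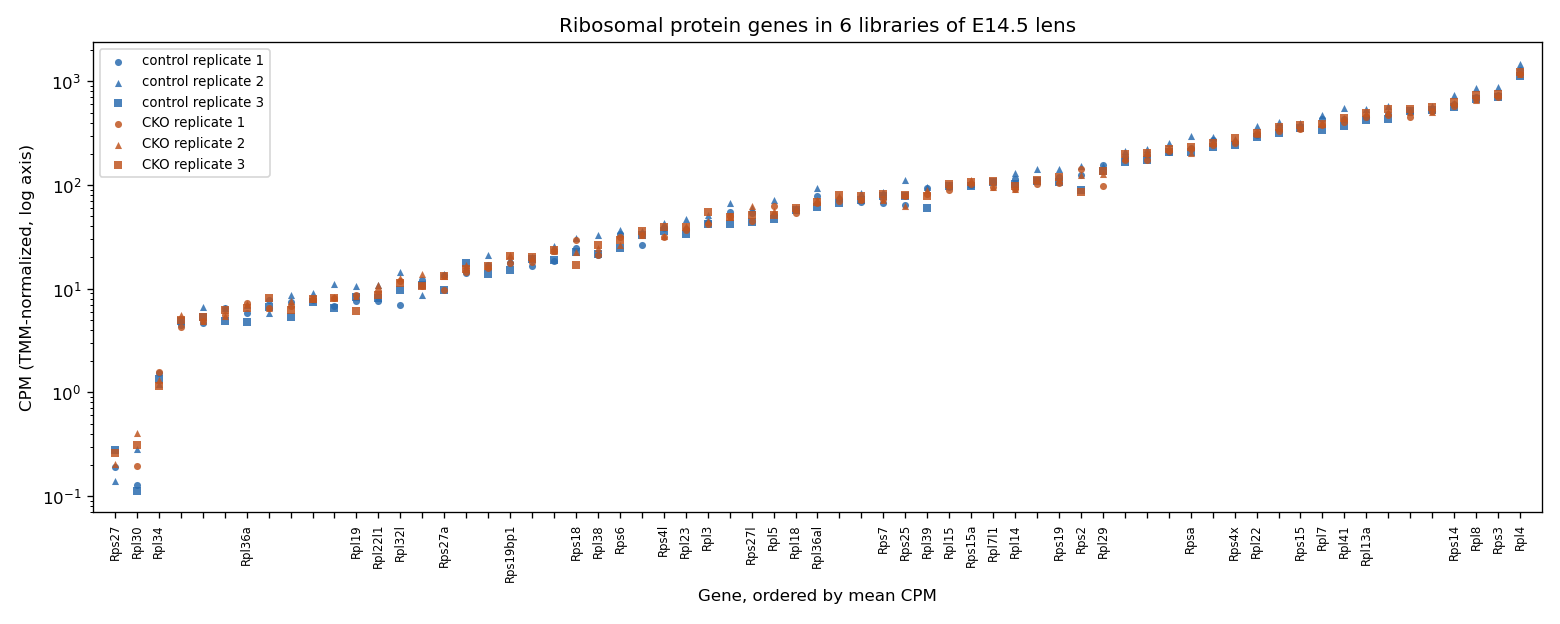
CPM of 65 ribosomal protein genes (log axis) in each of the 6 libraries, ordered by mean CPM; Rpl26, at 0 in every library, is not drawn. Circles, triangles and squares are replicates 1, 2 and 3, blue for control and orange for libraries labelled CKO. Names stand under the genes chosen for description. Levels ran from under 1 CPM for Rps27 and Rpl30 to 1251 CPM on average for Rpl4, and the 6 points of a gene lay close together against this range.

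Although the ribosome uses these proteins in nearly equal numbers, the counts assigned to their genes were far from equal. Mean CPM was over 100 for 26 members and under 10 for 14, and the 10 highest members held 58.5% of the summed CPM. Rpl4, whose protein lines the exit tunnel, was the highest at 1295, 1480 and 1138 CPM in the control pools, and 1185, 1184 and 1226 CPM in the libraries labelled CKO. Rps3, at the mRNA entry site of the small subunit, followed at 753 CPM on average, Rpl8 at 716 CPM and Rps14 at 623 CPM.

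Divided by mRNA length, the highest levels were those of Rps14 with 1043 CPM per kb, Rpl41, the shortest ribosomal protein, with 1009 CPM per kb, Rpl8 with 842 CPM per kb and Rpl4 with 814 CPM per kb. Among the tested members, Rpl34 was the lowest with 2.81 CPM per kb, 372 times below Rps14. The 77 mitochondrial ribosomal protein genes (Mrpl and Mrps), which also encode a complex of fixed makeup, ranged from 3.50 to 74.1 CPM per kb, a ratio of 21.2. Level per kb depends on the mRNA model, here the shortest principal transcript. With the longest one, Rpl22 went from 669 to 155 CPM per kb, and Rps15a from 162 to 20.0 CPM per kb.

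At the bottom, 3 members did not reach 10 counts in 3 libraries and were not tested. Rpl26 (chromosome 11, 68901583 to 68906989), whose product is known to raise translation of p53 mRNA, had 0 counts in all 6 libraries, although the table was described as holding genes above a minimum expression level. In the whole table, 42 genes had 0 counts in all libraries. A count of 0 allows up to 3 counts, which is between 0.153 and 0.211 CPM in these libraries. Rpl30 (chromosome 15, 34440505 to 34443640) had 2, 4 and 2 counts in the control pools, and 3, 8 and 6 counts in the libraries labelled CKO. Rps27 (chromosome 3, 90212522 to 90213651), a zinc finger protein of the small subunit, had 3, 2 and 5 counts in control and 0, 4 and 5 counts in CKO. Both groups were thus near the limit of 3 counts for these genes, and no fold change is given.

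Because near-copies can take up or exclude reads, the share of each mRNA that occurs in no other annotated gene was measured in the GENCODE M21 transcripts. Over windows of 100 bases, the median share was 66.5% for the members and 100% for the mitochondrial ribosomal protein genes, of which 65 of 77 were fully single-copy. At least 1 annotated pseudogene shared sequence with 64 of the 66 members, and the median number was 8. The number was 71 for Rps2, 81 for Rpl29 and Rpl21, and 119, the highest, for Rpl7a. Only 1.63% of the Rps27 mRNA was single-copy, but the shares of Rpl26 (63.2%) and Rpl30 (67.5%) were near the median, so genes at the bottom did not have in common a low single-copy share by this measure.

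Members with more single-copy sequence had higher levels. The median was 34.6 CPM per kb for 21 members under 50% single-copy, 75.9 CPM per kb for 29 members between 50% and 90%, and 344 CPM per kb for 16 members at 90% or more. Spearman's rho between single-copy share and level per kb was 0.44 across the 66 genes with windows of 100 bases and 0.39 with windows of 50 bases. It was -0.38 between the number of pseudogenes and the level. These points are genes measured in the same 6 libraries and share one mapping, so rho is a description only. Among the 11 subunit genes with at least 90% single-copy sequence, levels ran from 60.2 (Rps20) to 842 CPM per kb (Rpl8), with a median of 669. Both the level and the single-copy share of Rps20 rest on an mRNA model of 3706 bases. The next lowest of these genes was Rpl39 with 136 CPM per kb. Whether the mapping of reads caused the unequal levels was not tested, since only counts were analysed.

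**Figure D2:**
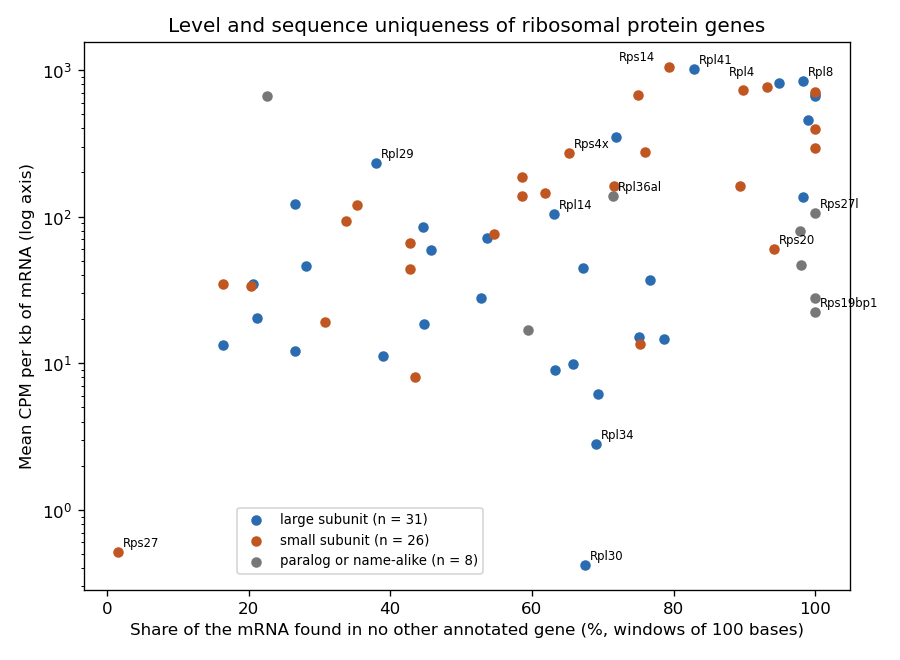
Mean CPM per kb of mRNA (log axis) against the share of the mRNA found in no other annotated gene, for the 65 members with counts; blue, orange and grey points are large subunit genes, small subunit genes and paralogs or similar names. Members at or above 90% single-copy lay between 22.3 and 842 CPM per kb, while those under 50% reached down to 0.519 CPM per kb (Rps27).

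The libraries labelled CKO were compared with control to find whether loss of Gata3 went with another level of these genes. The ribosomal protein genes as a group were nearly level between the groups. Over the 63 members tested, the median log2 fold change was -0.03, against 0.00 over all 12879 genes tested, and single members ran from -0.30 (Rpl14) to 0.26 (Rpl36a). The estimate was positive for 21 and negative for 42 members, 41 lay within 0.1 of 0 and 60 (95.2%) within 0.2, where 79.3% of all genes lay. No member passed an adjusted p of 0.05 in edgeR's quasi-likelihood test with Benjamini-Hochberg adjustment (0 of 63, smallest adjusted p = 1.0), and neither did any other gene (0.0% of genes tested). DESeq2 called 85 genes (0.66%), of which 0 were members, with a smallest adjusted p among members of 0.781. At an unadjusted p under 0.05, edgeR called 1 member, Rpl14, lower in CKO, where 3.56% of all genes passed, 1.31% higher and 2.24% lower. DESeq2 called the same member at that level, beside 3.94% of all genes.

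The size of a difference that the 6 libraries leave possible is given by the intervals. The 95% interval stayed within 1 on the log2 scale in either direction for all 63 tested members and within 0.5 for 39 of them. The bounds farthest from 0 were -0.72 (Rpl34) and 0.83 (Rpl32l), and the median standard error was 0.13. With total counts alone, without TMM factors, the median of the members moved to 0.08 and that of all genes to 0.10, so that relative to all genes it was -0.02, and -0.03 with TMM factors. In bulk RNA, fewer cells of a type and less RNA per cell cannot be told apart.

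**Figure D3:**
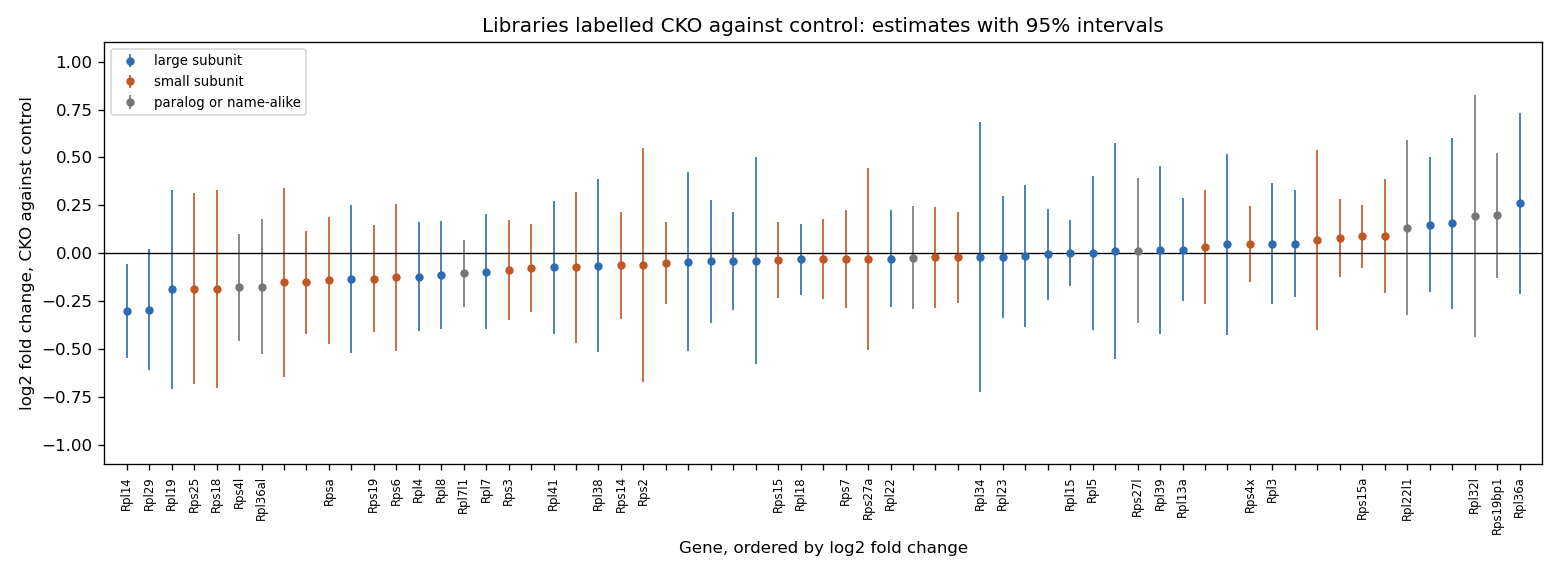
Log2 fold change of the libraries labelled CKO against control for the 63 tested members, ordered by size, with 95% intervals from edgeR; blue, orange and grey mark large subunit, small subunit and paralog or similarly named genes, with names under those chosen for description. Estimates ran from -0.30 to 0.26, and the interval of 1 gene, Rpl14, left out 0.

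Among the 32 large subunit genes, 30 were tested, with a median log2 fold change of -0.02, and 11 were positive and 19 negative. Without control replicate 2 this median was 0.09. Rpl14 (chromosome 9, 120571444 to 120574654, forward strand), a large subunit protein, was at 113, 131 and 102 CPM in the control pools, and at 90.6, 91.9 and 98.6 CPM in the libraries labelled CKO. The groups did not overlap, with all CKO values under all control values. The log2 fold change was -0.30 (SE 0.10, 95% interval -0.54 to -0.06), with an unadjusted p of 0.023 and an adjusted p of 1.0 in edgeR. Leaving out control replicate 1, CKO replicate 1 or CKO replicate 2 gave p values of 0.060, 0.075 and 0.067 at log2 fold changes between -0.30 and -0.28. The size rested on the control libraries, with -0.19 without control replicate 2 (unadjusted p of 0.045) and -0.38 without control replicate 3 (unadjusted p of 0.005). Non-overlap between groups was seen for 2 of 63 members, both lower, and for 8.35% of all genes (4.67% lower and 3.68% higher). An exact two-sided permutation test gave p = 0.1, the smallest p that 3 against 3 libraries can give.

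A row named Rpl14-ps1, a pseudogene on chromosome 7 (45324965 to 45325617, forward strand), held between 3.39 and 4.09 times the CPM of Rpl14 in each library. It was at 411, 491 and 347 CPM in the control pools, and at 371, 360 and 399 CPM in the libraries labelled CKO. Here the groups overlapped, with a log2 fold change of -0.14 (SE 0.13). Of the Rpl14 mRNA, 63.1% was single-copy at 100 bases, so fragments of the gene and of its copy cannot be fully separated. When the rows were added, a step chosen after seeing the data, the sum was 525, 622 and 449 CPM in control and 461, 452 and 497 CPM in CKO. The log2 fold change of the sum was -0.18 (SE 0.13, 95% interval -0.48 to 0.13), and no member then had an unadjusted p under 0.05.

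Rpl29 (chromosome 9, 106429454 to 106431568, forward strand), which also binds heparan sulfate, was the other gene without overlap. Its level was 157, 152 and 138 CPM in the control pools, and 98.2, 129 and 137 CPM in the libraries labelled CKO. The highest CKO value and the lowest control value were nearly equal, and CKO replicate 1 was the lowest library. The log2 fold change was -0.30 (SE 0.13, 95% interval -0.61 to 0.02). Rpl19, which forms a bridge to the small subunit, had a log2 fold change of -0.19 (SE 0.22) at 7.60, 10.7 and 8.38 CPM in control and 8.69, 8.59 and 6.14 CPM in CKO. At the other end, Rpl36a, encoded on the X chromosome, was at 5.89, 6.91 and 4.75 CPM in control and 7.33, 7.12 and 6.56 CPM in CKO, a log2 fold change of 0.26 (SE 0.20, 95% interval -0.21 to 0.73). The groups of both genes overlapped.

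The most abundant large subunit genes differed little. For Rpl4 the log2 fold change was -0.12 (95% interval -0.41 to 0.16), for Rpl8 it was -0.11 (-0.40 to 0.17) and for Rpl41 it was -0.07 (-0.42 to 0.27). Rpl3, whose protein reaches towards the peptidyl transferase centre, was at 43.5, 51.5 and 42.3 CPM in control and 42.0, 44.9 and 55.3 CPM in CKO, a log2 fold change of 0.05. Rpl39, a small protein of the exit tunnel, was at 93.1, 95.5 and 59.7 CPM in control and 82.0, 90.2 and 78.6 CPM in CKO, a log2 fold change of 0.02. In that gene control replicate 3 alone was low, and the CKO libraries lay between the control libraries. Rpl34, the lowest tested member, was between 1.14 and 1.56 CPM in all libraries, a log2 fold change of -0.02 with an interval from -0.72 to 0.68.

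Values of 4 further large subunit genes whose proteins have known roles outside the ribosome follow. Rpl5 and Rpl23 bind and inhibit Mdm2 when ribosome assembly is disturbed. Rpl5 was at 51.9, 71.3 and 47.2 CPM in control and 63.2, 55.7 and 51.7 CPM in CKO, a log2 fold change of 0.00 (SE 0.17) that was 0.21 without control replicate 2. Rpl23 was at 37.9, 47.0 and 33.3 CPM in control and 37.1, 39.8 and 39.8 CPM in CKO, a log2 fold change of -0.02 (SE 0.13). Rpl38, needed for translation of a set of Hox mRNAs in mouse embryos, was at 21.3, 32.6 and 21.5 CPM in control and 21.3, 24.5 and 26.3 CPM in CKO, a log2 fold change of -0.06 (SE 0.19). Rpl13a, which can leave the ribosome to repress inflammatory mRNAs, was at 455, 547 and 426 CPM in control and 453, 497 and 497 CPM in CKO, a log2 fold change of 0.02 (SE 0.11). In all 4 genes control replicate 2 was the highest library and the CKO values lay inside the control range or, for CKO replicate 1 of Rpl38, just under it.

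Rpl15 and Rpl18 were the least variable members with a mean of at least 10 CPM. Rpl15 lay between 90.6 and 102 CPM over the 6 libraries, a log2 fold change of 0.00 (95% interval -0.17 to 0.17). Rpl18 lay between 53.6 and 60.7 CPM, a log2 fold change of -0.03 (-0.22 to 0.16). These intervals are among the tightest of the group. A further 11 large subunit genes outside the paralog pairs (Rpl6, Rpl7a, Rpl13, Rpl21, Rpl27a, Rpl31, Rpl32, Rpl35, Rpl35a, Rpl36 and Rpl37a) had means from 4.86 to 356 CPM and log2 fold changes from -0.13 to 0.16, 4 positive and 7 negative, with a smallest p of 0.345.

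**Figure D4:**
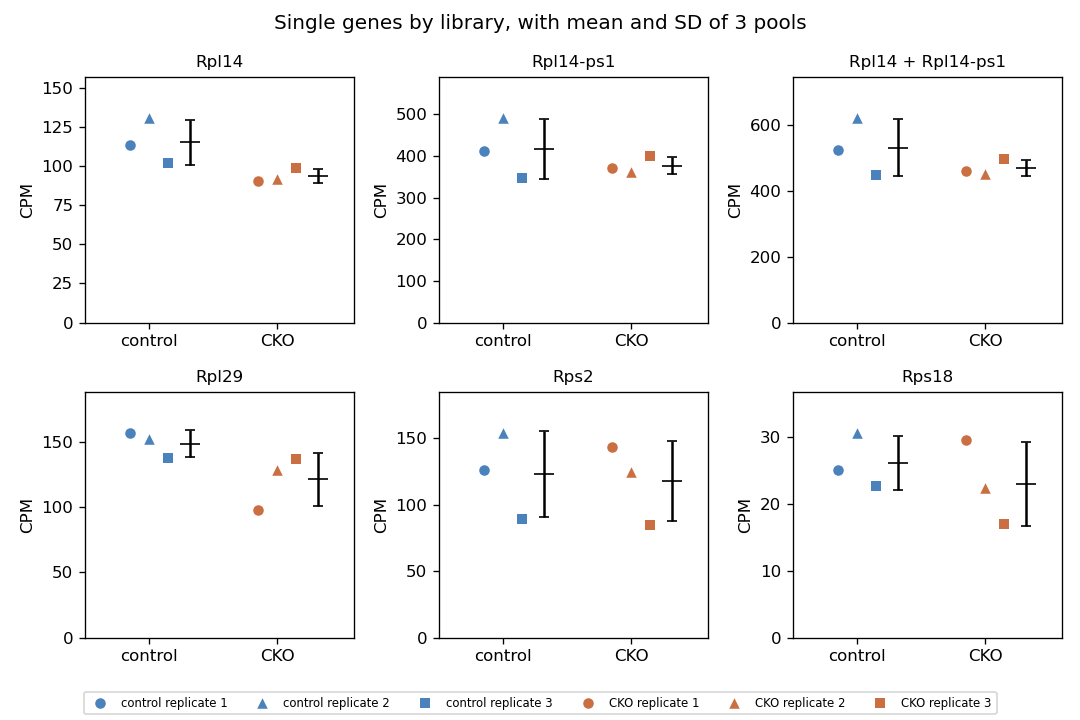
CPM by library for Rpl14, its pseudogene row Rpl14-ps1, the sum of both, Rpl29, Rps2 and Rps18, with each axis starting at 0; black bars are the mean and SD of 3 pools. Rpl14 and Rpl29 showed no overlap between groups, the pseudogene row and the sum overlapped, and Rps2 was lowest in replicate 3 of both groups (89.1 and 84.9 CPM).

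Among the 26 small subunit genes, 25 were tested, with a median log2 fold change of -0.05, and 6 were positive and 19 negative. Without control replicate 2 the median turned to 0.06. None had an unadjusted p under 0.05 or groups without overlap, and estimates ran from -0.18 to 0.09. Rps14, whose partial loss underlies the anaemia of a human myelodysplastic syndrome, was at 607, 736 and 566 CPM in the control pools, and at 578, 618 and 632 CPM in the libraries labelled CKO. For it the log2 fold change was -0.06 (95% interval -0.34 to 0.21). Rps3 was at 733, 883 and 711 CPM in control and 701, 734 and 757 CPM in CKO, a log2 fold change of -0.09 (-0.35 to 0.17). Control replicate 2 was the highest library for both.

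Rps6, the substrate of the S6 kinases and a common readout of mTORC1 activity, was at 33.8, 36.7 and 24.7 CPM in control and 31.4, 26.2 and 29.7 CPM in CKO. The CKO values lay inside the control range, with a log2 fold change of -0.12 (SE 0.16). Rps19, the gene most often mutated in Diamond-Blackfan anaemia, was at 120, 143 and 107 CPM in control and 105, 112 and 119 CPM in CKO, a log2 fold change of -0.13 (SE 0.12). Rps7, another Mdm2 binding protein, was at 67.8, 86.0 and 78.2 CPM in control and 74.0, 71.9 and 81.6 CPM in CKO, a log2 fold change of -0.03 (SE 0.11). Rpsa, also known as a laminin receptor, was at 227, 295 and 208 CPM in control and 223, 205 and 235 CPM in CKO, a log2 fold change of -0.14 (SE 0.14). The groups overlapped in each of these genes. Rps27a, made as a fusion with ubiquitin, was at 13.4, 13.7 and 9.77 CPM in control and 9.72, 13.3 and 13.2 CPM in CKO, a log2 fold change of -0.03 (SE 0.20).

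The 4 members that varied most over the libraries, among those with a mean of at least 10 CPM, were the paralog Rpl32l and 3 small subunit genes, whose groups overlapped. Rps25, required for initiation on some viral mRNAs, was at 64.7, 111 and 78.3 CPM in control and 79.2, 63.2 and 80.9 CPM in CKO. Rps18, in the head of the subunit, was at 25.0, 30.5 and 22.7 CPM in control and 29.4, 22.4 and 17.0 CPM in CKO. Rps2, at the mRNA entry channel, was at 126, 154 and 89.1 CPM in control and 144, 125 and 84.9 CPM in CKO. Replicate 3 of each group was the lowest for Rps2. Rps2 shares sequence with 71 annotated pseudogenes and 35.3% of its mRNA was single-copy, and for Rps18 the share was 42.7%. By contrast, Rps15 lay between 346 and 396 CPM and Rps15a between 98.3 and 112 CPM in all libraries. A further 8 small subunit genes outside the paralog pairs (Rps3a1, Rps9, Rps10, Rps20, Rps21, Rps24, Rps26 and Rps29) had means from 5.30 to 510 CPM and log2 fold changes from -0.15 to 0.08, 1 positive and 7 negative, with a smallest p of 0.225.

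Paralogs can replace a ribosomal protein in some tissues, and their levels per kb were set beside those of the standard gene. Rpl22l1 had 16.8 CPM per kb, against 669 CPM per kb for Rpl22, which is known to repress its paralog. Rps4l had 46.4 CPM per kb, against 272 CPM per kb for Rps4x on the X chromosome. Rpl7l1, a ribosome assembly factor in spite of its name, had 79.4 CPM per kb, against 347 CPM per kb for Rpl7. In these pairs the standard gene was the higher. The order was the other way for Rpl36al with 139 CPM per kb, against 13.3 CPM per kb for Rpl36a, and for Rps27l, a p53 target, with 106 CPM per kb, against 0.519 CPM per kb for Rps27. Both of the low standard genes had little single-copy sequence (16.4% for Rpl36a and 1.63% for Rps27), against 71.4% for Rpl36al and 100% for Rps27l. The share was 100% for Rpl22 and 59.4% for Rpl22l1. It was 65.2% for Rps4x against 98.0% for Rps4l, and 71.8% for Rpl7 against 97.8% for Rpl7l1. Rps4x and Rpl7 thus had the higher level with the lower share, and the part of mapping in these orders was not tested. Rpl37rt, the retrotransposed copy of a ribosomal protein gene, had 662 CPM per kb with 22.6% single-copy sequence. This level rests on an mRNA model of 294 bases, and with the longest principal transcript it was 286 CPM per kb.

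The 8 paralogs and similarly named genes did not separate the groups, with a median log2 fold change of 0.00 and 4 positive and 4 negative estimates. Rpl22l1 was at 7.60, 10.8 and 8.10 CPM in control and 9.60, 10.8 and 8.64 CPM in CKO, a log2 fold change of 0.13 (SE 0.19). For Rpl22 the log2 fold change was -0.03 (SE 0.11). Rps27l was at 53.7, 59.8 and 44.0 CPM in control and 45.4, 62.6 and 50.9 CPM in CKO, a log2 fold change of 0.01 (SE 0.16). Values of the groups were intermixed in both paralogs.

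Rpl36al had a log2 fold change of -0.17 (SE 0.15) and Rpl7l1 of -0.10 (SE 0.07), with -0.10 (SE 0.13) for Rpl7. Rps4l was at 38.3, 42.6 and 35.9 CPM in control and 31.4, 32.5 and 39.1 CPM in CKO, a log2 fold change of -0.18 (SE 0.12), while Rps4x had 0.05 (SE 0.08). Rps19bp1, which encodes a nucleolar protein that binds Rps19 and is no ribosomal subunit, was at 17.7, 19.4 and 15.03 CPM in control and 17.8, 21.3 and 20.7 CPM in CKO, a log2 fold change of 0.20 (SE 0.14, 95% interval -0.13 to 0.53). Rpl32l was at 6.91, 14.4 and 9.72 CPM in control and 11.7, 12.6 and 11.2 CPM in CKO, a log2 fold change of 0.20 (SE 0.27). The control libraries of Rpl32l spread over more than the whole CKO range.

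After TMM scaling, most members shared a high level in one control library. The TMM factor was 0.87 in control replicate 2 and between 0.998 and 1.05 in the other libraries. By share of all counts, control replicate 2 (1.07%) was below CKO replicates 2 and 3 (1.09% and 1.13%). Control replicate 2 was the highest library for 47 of the 63 tested members and for 31.6% of all genes, and control replicate 3 was the lowest for 28 members and for 21.3% of all genes. The median deviation of a member from its mean log2 CPM was 0.20 in control replicate 2 and -0.13 in control replicate 3. It was -0.03 in control replicate 1, and -0.07, 0.00 and 0.03 in the libraries labelled CKO, so the CKO libraries lay between the extremes of the control group. Control replicate 2 is also the library with the highest lens fibre marker sum, blood marker sum (1446 CPM, against 343 to 603 CPM elsewhere) and crystallin share. Its lens epithelium (1572 CPM) and macrophage (133 CPM) marker sums were the highest too. Retina markers summed to 926 CPM there, the lowest, and to between 1429 and 2163 CPM elsewhere, with the highest in control replicate 3. The part of these in the member levels was not tested. Without control replicate 2, the median log2 fold change of the members was 0.07 and 48 were positive, and without control replicate 3 it was -0.11 and 14 were positive. The median SD of log2 CPM over the libraries was 0.16 for both the members and all genes, which include many genes of other levels. It was 0.12 for the mitochondrial ribosomal protein genes, 0.13 for other genes with TOP mRNAs and 0.10 for ribosome biogenesis genes. For snoRNA host genes it was 0.18. The members thus varied more than the mitochondrial ribosomal protein genes.

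**Figure D5:**
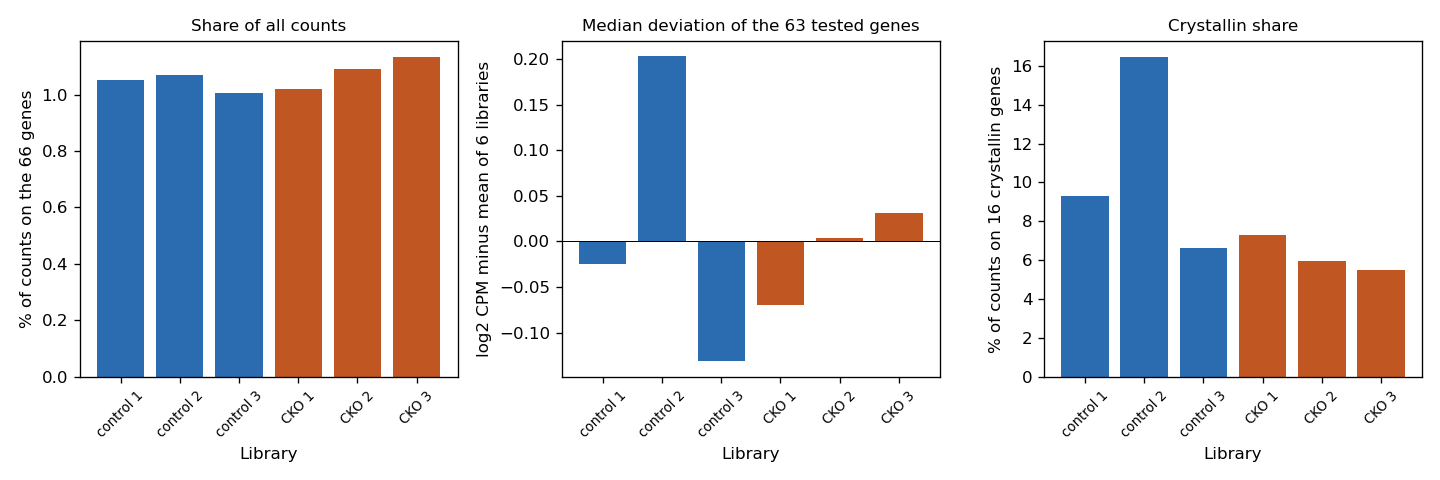
Member share of counts, member deviation and crystallin share for each library, with control in blue and libraries labelled CKO in orange. The share of counts on the 66 genes lay between 1.01% and 1.13% in all libraries, the median deviation of the 63 tested members (log2 CPM minus the mean over libraries) was highest in control replicate 2 and lowest in control replicate 3, and the crystallin share was highest in control replicate 2.

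Members with much and with little single-copy sequence had the same median estimate. The median log2 fold change was -0.03 for the 16 members with at least 90% single-copy sequence and -0.03 for the 20 tested members with less than 50%. The median SD of log2 CPM was 0.14 in the former and 0.19 in the latter.

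The other genes of the protein synthesis machinery were counted in the same fit. The P stalk genes Rplp0, Rplp1 and Rplp2 and Fau, which is made as a fusion with a ubiquitin-like protein, had a median log2 fold change of -0.09, with 0 of 4 at an unadjusted p under 0.05. Rplp0, the base of the stalk that recruits elongation factors, was at 757, 876 and 660 CPM in control and 707, 710 and 760 CPM in CKO, a log2 fold change of -0.08 (SE 0.12). For elongation factors and other genes with TOP mRNAs, the median was -0.04 and 0 of 19 passed. The smallest p in that list was that of Eef1d, an exchange factor subunit, with a log2 fold change of -0.30 (SE 0.14). RNA polymerase I genes had 0 of 15 passing and a median of -0.05. Of 32 ribosome biogenesis genes, 0 were higher and 1 was lower, the small subunit processome gene Nop14 (log2 fold change -0.23, SE 0.09), and the list median was -0.04. Of 77 mitochondrial ribosomal protein genes, 0 were higher and 1 lower, Mrpl51 (log2 fold change -0.33, SE 0.12), with a median of -0.04. Nop14 and Mrpl51 each lost the unadjusted p under 0.05 when any of 5 libraries was left out, all but control replicate 3. These counts are read against the 1.31% of all genes higher and 2.24% lower. Without control replicate 2 the medians turned to 0.04 for the TOP mRNA list, 0.02 for ribosome biogenesis and 0.04 for the mitochondrial genes, and the log2 fold changes of Eef1d and Mrpl51 were -0.12 and -0.19.

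The regulator and snoRNA host lists held larger differences. Of 14 mTORC1, S6 kinase and TOP regulator genes, 0 were higher and 2 lower. Tsc2, a GTPase activating subunit that restrains mTORC1, was at 301, 506 and 249 CPM in control and 190, 177 and 142 CPM in CKO, a log2 fold change of -1.05 (SE 0.27, adjusted p = 0.836 in edgeR and 0.016 in DESeq2). Mtor, the kinase itself, was at 210, 293 and 189 CPM in control and 162, 140 and 142 CPM in CKO, a log2 fold change of -0.64 (SE 0.17, adjusted p = 0.844 in edgeR and 0.083 in DESeq2). In both genes the groups did not overlap and control replicate 2 was the highest library, and without it the log2 fold changes were closest to 0, at -0.69 and -0.42. Larp1, the TOP repressor, had a log2 fold change of -0.05 (SE 0.10), and Rps6kb1, an S6 kinase, had 0.02 (SE 0.08).

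Of the 12 snoRNA host genes, 0 were higher and 1 lower. Snhg12 was at 33.9, 58.0 and 23.2 CPM in control and 11.9, 14.6 and 11.7 CPM in CKO, a log2 fold change of -1.59 (SE 0.33, adjusted p = 0.586 in edgeR and 6.66e-04 in DESeq2). Control replicate 2 was its highest library, and without that library the log2 fold change was -1.15. No Myc family gene had an unadjusted p under 0.05 (0 of 4). Myc, an activator of ribosome biogenesis, had a log2 fold change of -0.39 (SE 0.18; -0.20 without control replicate 2) and Mycn 0.13 (SE 0.08). Of 4 genes of the p53 checkpoint that free ribosomal proteins act on, 1 was higher. This was the p53 target and kinase inhibitor Cdkn1a, at 9.502, 14.2 and 6.98 CPM in control and 18.2, 19.5 and 18.7 CPM in CKO, a log2 fold change of 0.88 (SE 0.25, adjusted p = 0.967 in edgeR and 0.137 in DESeq2). Mdm2 had a log2 fold change of 0.06 (SE 0.07).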

How the data were processed

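The authors trimmed paired-end reads of strand-specific polyA libraries with Trim Galore, aligned them to mm10 with TopHat2 2.0.13, counted fragments per RefSeq gene with HTSeq 0.6.1 and kept genes above a minimum mean FPKM from Cuffdiff 2.2.1; per the submitters' processing notes DESeq2 was also used. They deposited these raw counts, 1 column per pool. The strand and overlap options are not given in the sources used here, so overlapping and antisense genes have uncertain values. Titles number the CKO libraries 1 to 3 and descriptions 2 to 4, and title numbers are used.

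The 12879 genes that reached 10 counts in 3 or more libraries were tested over the whole table in edgeR 4.0.16 (R 4.3.3; TMM, robust quasi-likelihood fit, Benjamini-Hochberg adjustment at 0.05), with group as the single term. At a depth of 15157230 to 18811104 counts per library, 14 members had a mean under 10 CPM, and for such genes counting adds to the spread between pools. How much each adds was not measured. Intervals are 95% intervals of that fit. Permutation tests used log2(CPM + 0.5). DESeq2 1.42.0, limma 3.58.1 (voom), other scalings and filters, a replicate block and each library left out were alternatives. Same-numbered libraries deviated together with correlations of -0.49, 0.09 and 0.44, so the numbers were not taken to pair them. The fit was also run on simulated counts, drawn independently for each gene and library. That run held no shift shared by many genes of a pool, so it does not bear on such shifts.

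Positions and mRNA models are from GENCODE M21 (GRCm38, the assembly of mm10); 66 of 13024 genes were not matched. Start site windows are from RefSeq (GRCm38.p6) and were matched by symbol. Windows of 50 and 100 bases of each mRNA were looked up in the transcripts of all other genes. Members and lists were chosen with earlier results of these data known. Named genes are members with an unadjusted p under 0.05, the 4 highest and 4 lowest per kb, the 4 most and 4 least variable at 10 CPM or more, paralog pairs, genes with known other roles, the 3 largest differences in each direction, and up to 3 genes with the smallest p in each list. Rps20, Rpl7a, Rpl21, Rpl37rt, Larp1 and Rps6kb1 are outside this rule and were chosen after their values were seen. Some genes that enter the counts and medians are not reported here singly. Proteins were not analysed here.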

Additional observations from a re-analysis of the deposited data

How the results depend on the processing

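Estimates of 38 named members were made under 17 alternatives, 645 in all. Rpl14, the 1 member with an unadjusted p under 0.05, was lower in each and lost that p in 5 of its estimates, and 6 estimates of other members gained one. Another sign than the value reported was seen in 59 estimates, none of them with such a p. The number of members with an unadjusted p under 0.05 was 1 in the report, 0 to 5 when single libraries were left out and 0 with the pseudogene rows added to their namesakes (Rpl14, log2 fold change -0.18). It was 3 without control replicate 2 (Rpl14 lower, Rpl31 and Rpl32l higher), 5 without control replicate 3 (Rpl14, Rpl27a, Rpl29, Rpl36al and Rpl7, all lower), 2 without CKO replicate 3 (Rpl14 and Rpl29, lower) and 0 without control replicate 1, CKO replicate 1 or CKO replicate 2. Leaving out libraries moved the median log2 fold change of the members from -0.11 to 0.07 and the number of positive estimates from 14 to 48. With total counts alone, 49 estimates were positive, 1 gene of all had an adjusted p under 0.05, and Rps19bp1 (higher, log2 fold change 0.31) took the place of Rpl14; the median of all genes moved to 0.10 and the members lay 0.02 below it. DESeq2 called 85 genes of all, edgeR 0, and 0 to 1 when single libraries were left out. The share of counts on the members was 0.038 percentage points higher in CKO, and -0.020 with crystallins out of the totals. With the replicate number as a block, the median was -0.03, 20 estimates were positive and Rpl14 (log2 fold change -0.29) was the 1 member called; the block changed no other call of a member. The cause of these changes was not tested.

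Limits follow from 3 pools a group. After TMM scaling, the members deviated together by 0.20 in control replicate 2, so a shared shift below that size lies within the spread of the control pools. For the scarcest members depth adds to this. Levels of genes with near-copies depend on how fragments were assigned, which counts do not show.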
